A study of Mus musculus with 132 samples.

Results

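The comparison described here set mouse mesoderm that lacked the CTCF binding site beside promoter P2 of *Runx1* (P2-CTCF-KO) directly against mesoderm that lacked the site beside promoter P1 (P1-CTCF-KO). Its members were the 6 poly(A)-minus RNA-seq libraries labelled with these genotypes and with the Flk1 stage, 3 of each genotype, out of 23 RNA-seq libraries in the count table and 132 samples in the series. All of them came from E14-TG2a, a male mouse embryonic stem cell (mESC) line of the 129/Ola strain, differentiated in serum-free medium and collected at day 4 as Flk1+ (KDR+) mesoderm sorted by FACS. The 3 P1-CTCF-KO libraries came from clones E7.1, E7.2 and E9.1 and the 3 P2-CTCF-KO libraries from clones D10.1, D2.1 and E9.1, and the shared name E9.1 stands for different clones. Every knock-out line was a single clone in which paired guides and Cas9 had removed the site from both alleles. By their names, clones E7.1 and E7.2 were taken as sub-clones of the same targeting event, which the paper's text does not state. The paper derives its P1-CTCF-KO sub-clones from 2 targeting events, so that the P1-CTCF-KO group holds fewer independent events than libraries. The p-values measure the spread between libraries of the same genotype, pooled over the knock-out and wild-type groups. Each clone gave a single RNA-seq library of mesoderm. The spread between clones therefore cannot be told apart from that between cultures, sorts or library preparations. Mesoderm of wild-type clones at day 4 (3 libraries, one each of B9.3, C6.1 and C8.1) entered the same fit, and the 8 libraries of CD41+ hematopoietic progenitor cells (HPCs) of the 2 knock-out genotypes at day 7 were used to compare the stages. Below, values per library are given as counts-per-million (CPM) in the order E7.1, E7.2 and E9.1 for P1-CTCF-KO, D10.1, D2.1 and E9.1 for P2-CTCF-KO, and B9.3, C6.1 and C8.1 for wild type.

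RUNX1 is a transcription factor that is needed for the first blood stem and progenitor cells to form from hemogenic endothelium. Its gene is read from a distal promoter, P1, and a proximal promoter, P2, which lies inside the P1 transcript. CTCF is a zinc finger protein that binds DNA and, with the cohesin ring, sets the ends of chromatin loops and domains. In differentiating mESC cultures, cells pass through a state that resembles the primitive streak, with *T* (Brachyury), *Eomes* and *Mixl1*, and become Flk1+ mesoderm, from which endothelial and blood cells arise.

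The sites are shown because they are what distinguishes the genotypes. Both lie on chromosome 16, where *Runx1* is listed on the minus strand from 92601710 to 92826319 (mm9). In CTCF ChIP-seq of 416B cells, a mouse hematopoietic progenitor line, the peak nearest to P1 spans 231 bp and lies 1959 to 2189 bp upstream of the P1 transcript start, outside the gene. The peak nearest to P2 spans 524 bp and lies 1244 to 1767 bp upstream of the P2 start, in an intron of the P1 transcript, so that it falls inside the interval over which *Runx1* reads were counted. Each of these peaks overlaps 1 ATAC-seq peak of wild-type Flk1+ mesoderm. The plus strand of the mm9 reference is printed below for the whole P1 peak and for 300 bases of the P2 peak, with the match to a CTCF core in capitals. That reference is of another mouse strain than the clones, and the exact ends of the deletions were not used here.
P1 site, chr16:92828270-92828500: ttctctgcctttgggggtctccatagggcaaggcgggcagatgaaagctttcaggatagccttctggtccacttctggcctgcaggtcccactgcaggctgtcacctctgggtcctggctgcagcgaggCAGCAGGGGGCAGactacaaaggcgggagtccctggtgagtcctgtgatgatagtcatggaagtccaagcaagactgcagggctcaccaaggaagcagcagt
P2 site, chr16:92698917-92699216: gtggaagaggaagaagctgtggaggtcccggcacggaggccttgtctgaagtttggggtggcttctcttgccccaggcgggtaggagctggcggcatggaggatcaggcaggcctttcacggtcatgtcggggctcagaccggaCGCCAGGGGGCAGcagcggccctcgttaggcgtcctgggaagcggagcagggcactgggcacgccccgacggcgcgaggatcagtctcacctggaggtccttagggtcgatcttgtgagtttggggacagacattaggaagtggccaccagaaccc

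Both cores read on the plus strand and match the letters CNNCAGNNGGCNG, which were chosen after the site letters had been seen and were searched on both strands. The P1 core lies 2088 bp upstream of its transcript start and the P2 core 1488 bp upstream. Of the 44513 CTCF peaks of 416B cells, 3405 (7.6%) hold this pattern. The commoner pattern CCNNNAGNNGGC was found in 52.7% of all peaks and in neither of these sites. The match is a description of letters and was not tested for binding in mesoderm.

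The 9 mesoderm libraries held between 18233679 and 24406998 counts, of which 88.8% to 91.0% fell on ribosomal RNA entries and genes listed at several loci, so that 1897917 to 2288976 counts were left for other genes. The limit that a count of 0 allows was highest, at 0.264 CPM, in wild-type clone C6.1, which had the smallest normalization factor. The 7 markers of Flk1+ mesoderm summed to 30.3 to 39.7 CPM in P1-CTCF-KO and 38.1 to 42.8 CPM in P2-CTCF-KO libraries. Of the 7, 3 had more than 3 counts in every library. The sum holds *Kdr*, on which the cells were sorted. It also pools *T*, *Mesp1* and *Pdgfra*, higher in P2-CTCF-KO, with *Tal1*, which was lower, so similar sums do not show similar cells. Markers of ectoderm (at most 0.143 CPM over 2 genes, *Pax6* at 0 in every library) and of endoderm (at most 0.0507 CPM over 3 genes, *Ttr* at 0 in every library) were near 0. *Otx2*, an ectoderm and epiblast gene outside these markers, had too few reads to be tested in the fit of 9 libraries. It was at 0, 0.0588 and 0.0478 CPM in P1-CTCF-KO and 0.862, 1.16 and 0.376 CPM in P2-CTCF-KO. Without the wild-type library B9.3, *Otx2* was tested and was called by edgeR. The 4 markers of undifferentiated mESCs summed to 0.291 to 1.32 CPM in P1-CTCF-KO and 0.484 to 2.43 CPM in P2-CTCF-KO libraries, and the 5 HPC markers to 4.20 to 10.09 and 2.18 to 5.91 CPM. The HPC markers include *Runx1* itself. The part of these markers in the results below was not tested. In bulk libraries such as these, fewer cells of a type and less RNA per cell cannot be told apart. On the first principal component, which carried 73.9% of the variance, the P2-CTCF-KO libraries lay close together (17.1, 17.3 and 15.3), while P1-CTCF-KO libraries (-10.2, 6.59 and -21.8) and wild-type libraries (-31.1, 9.95 and -3.15) were spread widely. The libraries of P1-CTCF-KO clone E7.2 and wild-type clone C6.1 were the nearest to those of P2-CTCF-KO and had the largest and the smallest normalization factor (1.667 and 0.525).

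*Runx1* itself did not separate the genotypes. Its level was 6.68, 8.06 and 2.58 CPM in P1-CTCF-KO, 1.47, 5.50 and 4.89 CPM in P2-CTCF-KO and 2.87, 9.15 and 11.0 CPM in wild-type mesoderm. The knock-out groups overlap, since clone E9.1 of P1-CTCF-KO lies below 2 of the 3 P2-CTCF-KO clones. The mean was 5.77 ± 2.85 CPM (SD, n = 3) in P1-CTCF-KO and 3.96 ± 2.17 CPM in P2-CTCF-KO, a log2 fold change of -0.57 (SE 0.57, adjusted p = 0.769 in edgeR's quasi-likelihood test, Benjamini-Hochberg adjusted). An exact two-sided permutation test over the 20 assignments of the libraries gave p = 0.4, where 0.1 is the smallest value 3 against 3 libraries can give. *Cbfb*, which encodes the partner of RUNX proteins on DNA, overlapped as well, with a log2 fold change of -0.24 (SE 0.20). Since the deleted sites lie in an intron and upstream of the gene, gene counts do not check the genotypes of the clones.

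Of 25146 genes in the count table, 8778 were tested. None of those tested (0%) was called by edgeR's quasi-likelihood test at an adjusted p under 0.05 and a log2 fold change over 1. The smallest adjusted p was 0.0934, shared by *Cbfa2t3* and *Prkar2b*. At an unadjusted p under 0.05 there were 987 genes, 400 of them higher in P2-CTCF-KO (4.56% of those tested) and 587 lower (6.69%). DESeq2, the tool named in the study's methods, called 98 genes on the same libraries, of which 24 (0.273%) were higher and 74 (0.843%) lower in P2-CTCF-KO. In 755 genes (8.6%) every P2-CTCF-KO library lay above every P1-CTCF-KO library, in 854 (9.73%) every one lay below, and the median log2 fold change of all tested genes was 0.0061. The statements below are therefore about values and about whether libraries overlap, and a gene is said to be called only where DESeq2 did so.

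**Figure D1:**
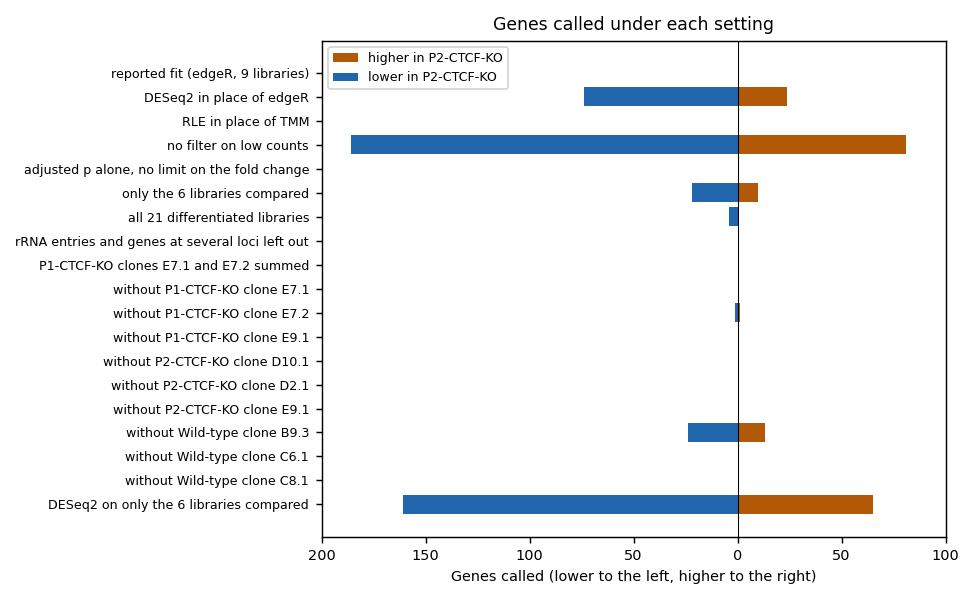
Number of genes called (adjusted p under 0.05, log2 fold change over 1) in P2-CTCF-KO against P1-CTCF-KO mesoderm under each setting, with genes lower in P2-CTCF-KO to the left and genes higher to the right of 0; for the adjusted p alone the limit on the fold change was dropped. The fit reported here has no bar, DESeq2 has 24 genes to the right and 74 to the left, and the largest numbers, 81 and 186, come from testing genes with low counts.

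How many genes were called depended on the tool and on the wild-type libraries in the fit. With only the 6 knock-out libraries, edgeR called 32 genes, and DESeq2 called 226. Leaving out the wild-type library B9.3, which lies farthest out on the first principal component, gave 37 genes, and leaving out P1-CTCF-KO clone E7.2 gave 2, *Plxna4* and *Cbfa2t3*. DESeq2's 98 genes and the 32 genes of edgeR on 6 libraries had 28 genes in common.

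Genes of the primitive streak and of newly formed mesoderm had higher values in P2-CTCF-KO than in P1-CTCF-KO mesoderm. Of 19 listed genes, 11 passed the filter on low counts, and in none of the 11 did the libraries of the genotypes overlap, with 10 higher in P2-CTCF-KO, where 8.6% of all genes were, and *Cdx2* lower. The median log2 fold change of the 11 genes was 2.37, against 0.0061 over all genes. The filter needs reads in only as many libraries as a group holds. Genes low in P1-CTCF-KO and wild type, such as *Mesp1* and *Sp5*, therefore passed through the P2-CTCF-KO libraries alone. The lack of overlap, the directions and the median depend in part on the filter. DESeq2 called *Pdgfra*, *Mixl1*, *Eomes* and *T* as higher and *Cdx2* as lower. *T* and *Eomes* are among the markers that the study shows for these same P2-CTCF-KO libraries beside wild type, so their direction is not independent evidence.

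*T*, the Brachyury transcription factor of the streak, was at 0.166, 0.9997 and 0.287 CPM in P1-CTCF-KO and at 4.36, 2.72 and 2.58 CPM in P2-CTCF-KO libraries. The wild-type libraries held 0.125, 1.41 and 0.213 CPM. Every P2-CTCF-KO library was above every other library, and clones E7.2 and C6.1 were the highest of the rest. The log2 fold change was 2.63 (SE 0.70), with an adjusted p of 0.236 in edgeR's quasi-likelihood test, Benjamini-Hochberg adjusted and of 0.0382 in DESeq2.

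*Eomes*, a T-box factor that specifies mesoderm and endoderm, stood at 2.28, 3.26 and 1.29 CPM in P1-CTCF-KO, 8.82, 18.7 and 8.71 CPM in P2-CTCF-KO and 0.582, 4.14 and 1.19 CPM in wild type. Clone D2.1 held the most, and the groups did not overlap. Its log2 fold change was 2.37 (SE 0.57, adjusted p = 0.233 in edgeR's and 0.0073 in DESeq2's test). *Mixl1*, a homeobox gene of the streak, was also highest in clone D2.1, where 23.7 CPM stood beside 7.40 and 11.2 CPM in D10.1 and E9.1. In P1-CTCF-KO *Mixl1* was at 2.33, 3.79 and 1.19 CPM, which gave a log2 fold change of 2.497 (SE 0.60, DESeq2 adjusted p = 0.00619).

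*Pdgfra*, the receptor that marks mesoderm of streak origin, had the smallest spread between clones in this group. It was measured at 5.73, 5.85 and 5.11 CPM in P1-CTCF-KO and at 12.2, 12.6 and 10.2 CPM in P2-CTCF-KO. All wild-type values (3.95, 6.34 and 4.17 CPM) were on the P1-CTCF-KO side. The difference was 1.06 on the log2 scale (SE 0.20, adjusted p = 0.191 in edgeR's and 0.00353 in DESeq2's test).

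*Mesp1*, a factor of the first migrating mesoderm, was at 0.0830, 0.382 and 0.0478 CPM in P1-CTCF-KO, under the limit of 3 counts in clones E7.1 and E9.1, and at 1.93, 1.22 and 1.45 CPM in P2-CTCF-KO. *Lhx1*, a LIM homeobox gene of streak and axial mesoderm, had the largest positive fold change of all tested genes, 3.69 on the log2 scale (SE 0.77), with 0.208, 0.618 and 0.0955 CPM against 6.03, 4.96 and 2.21 CPM. These genes had few reads in P1-CTCF-KO, and DESeq2 gave adjusted p-values of 0.0621 for *Mesp1* and 0.0858 for *Lhx1*. *Wnt3* and *Fgf8*, signals of the streak, and *Evx1* had log2 fold changes of 1.61, 1.61 and 1.57. *Cdx2*, a homeobox gene of posterior mesoderm, ran the other way, with 1.95, 0.676 and 2.29 CPM in P1-CTCF-KO and 0.152, 0.136 and 0.376 CPM in P2-CTCF-KO (log2 fold change -2.81, SE 0.68, DESeq2 adjusted p = 0.0205).

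**Figure D2:**
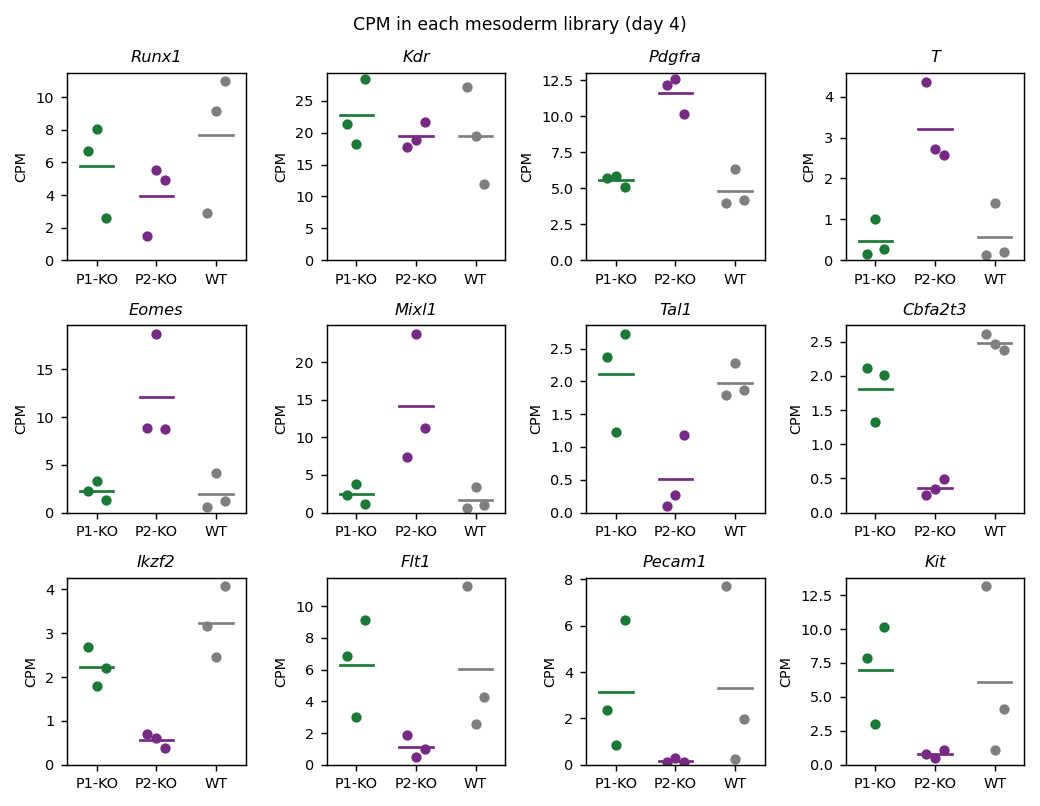
CPM of 12 genes in each of the 9 mesoderm libraries, with P1-CTCF-KO, P2-CTCF-KO and wild type as columns; each point is 1 library (1 clone), each bar the mean of 3, and the vertical axes start at 0 and differ between genes. *Pdgfra*, *T*, *Eomes* and *Mixl1* are higher in all 3 P2-CTCF-KO libraries than in all 3 P1-CTCF-KO libraries, *Tal1*, *Cbfa2t3*, *Ikzf2*, *Flt1*, *Pecam1* and *Kit* are lower, and *Runx1* and *Kdr* overlap.

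Regulators of blood formation had lower values in P2-CTCF-KO mesoderm. Of 24 listed genes 17 were tested and all 17 had a negative log2 fold change, with a median of -1.81. In 10 of the 17 every P2-CTCF-KO library lay below every P1-CTCF-KO library, where 9.73% of all genes did, and 11 had an unadjusted p under 0.05 with a lower value, against 6.69% of all genes. DESeq2 called *Cbfa2t3*, *Ikzf2* and *Erg*. The study reports these genes, and *Ikzf1* and *Etv6*, as lower in the same P2-CTCF-KO libraries than in wild type, so their direction is not independent evidence. The other 7 listed genes, among them *Gata1*, *Spi1* and *Gfi1b*, did not pass the filter. Genes low in P2-CTCF-KO, such as *Erg*, could pass it through the other libraries alone. The directions, the lack of overlap and the median therefore depend in part on the filter.

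*Cbfa2t3*, which encodes the co-repressor ETO2 that acts with TAL1, was at 2.12, 1.32 and 2.01 CPM in P1-CTCF-KO and at 0.253, 0.340 and 0.484 CPM in P2-CTCF-KO. The wild-type libraries, at 2.62, 2.46 and 2.38 CPM, were all above both knock-outs. The log2 fold change of -2.31 (SE 0.31) had an adjusted p of 0.0934 in edgeR's quasi-likelihood test, Benjamini-Hochberg adjusted and of 0.000828 in DESeq2. *Tal1*, a master factor of the blood and endothelial lineages, had 2.37, 1.24 and 2.72 CPM in P1-CTCF-KO and 0.101, 0.272 and 1.18 CPM in P2-CTCF-KO. Clone E9.1 of P2-CTCF-KO lay just below the lowest P1-CTCF-KO clone, E7.2, and the log2 fold change was -1.98 (SE 0.59, DESeq2 adjusted p = 0.0685), or -3.52 without that clone and -1.46 without D10.1.

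*Ikzf2* (Helios), a zinc finger factor of the Ikaros family, was at 2.70, 1.79 and 2.20 CPM against 0.7095, 0.612 and 0.376 CPM, a log2 fold change of -1.96 (SE 0.31, DESeq2 adjusted p = 0.00161). *Ikzf1* (Ikaros) was lower in number of reads and more variable, at 0.623, 1.32 and 0.191 CPM against 0.152, 0.0680 and 0.108 CPM, each P2-CTCF-KO value being at or below 3 counts (log2 fold change -2.67, SE 0.95). Both were without overlap between the knock-outs. *Etv6*, an ETS-family repressor needed for blood stem cells, was at 13.5, 7.498 and 13.7 CPM in P1-CTCF-KO and 6.79, 4.69 and 5.59 CPM in P2-CTCF-KO. This is a log2 fold change of -1.02 (SE 0.34, adjusted p = 0.334 in edgeR's and 0.217 in DESeq2's test).

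*Erg* and *Fli1* encode ETS factors shared by endothelial and blood cells. No read of *Erg* was counted in any P2-CTCF-KO library, whereas P1-CTCF-KO held 2.03, 0.323 and 3.49 CPM and wild type 5.99, 0.176 and 1.23 CPM. Taking 3 counts over the group as the floor, *Erg* was at least 34.4-fold lower in P2-CTCF-KO. *Fli1* was at 16.02, 3.68 and 17.4 CPM in P1-CTCF-KO and 0.101, 1.09 and 1.72 CPM in P2-CTCF-KO (log2 fold change -3.68, SE 0.93, DESeq2 adjusted p = 0.0659). For both, clones E7.2 and C6.1 were the lowest of the libraries outside P2-CTCF-KO. *Lmo2*, *Hhex* and *Itga2b* (CD41) were lower without overlap, at log2 fold changes of -1.02, -2.39 and -1.81, and *Gata2*, *Myb*, *Meis1*, *Ldb1* and *Zfpm1* overlapped.

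The endothelial and hemato-endothelial list had the most negative median, -3.002 over 17 tested of 24 genes, all 17 with negative values. P2-CTCF-KO lay below P1-CTCF-KO without overlap in 10 of them, where 9.73% of all genes did, and 12 had an unadjusted p under 0.05 with a lower value, against 6.69%. DESeq2 called *Kit*, *Flt1*, *Pecam1*, *Tek*, *Sox7* and *Cdh5*. Genes such as *Tek*, *Cdh5* and *Sox18* passed the filter on low counts through P1-CTCF-KO and wild-type libraries alone. The directions, the lack of overlap and the median depend in part on that. Of this list, *Flt1*, *Pecam1* and *Esam* are reported by the study as lower in the same P2-CTCF-KO libraries than in wild type. Their direction is not independent evidence. *Kdr*, the gene of the Flk1 receptor on which the cells were sorted, was not among the genes that differed. It stood at 21.4, 18.3 and 28.5 CPM in P1-CTCF-KO and 17.8, 18.9 and 21.7 CPM in P2-CTCF-KO, with overlapping libraries and a log2 fold change of -0.22 (SE 0.27, adjusted p = 0.823). *Nrp1* and *Nrp2*, co-receptors of VEGF, overlapped as well.

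*Flt1*, the other VEGF receptor of early vessels, was at 6.85, 2.999 and 9.12 CPM in P1-CTCF-KO, 1.88, 0.476 and 0.968 CPM in P2-CTCF-KO and 11.3, 2.55 and 4.30 CPM in wild type. The lowest P1-CTCF-KO clone, E7.2, still lay above every P2-CTCF-KO clone. Its log2 fold change was -2.46 (SE 0.63, adjusted p = 0.236 in edgeR's and 0.0073 in DESeq2's test). *Pecam1* (CD31), an adhesion molecule of endothelium, had 2.37, 0.853 and 6.26 CPM against 0.101, 0.272 and 0.108 CPM. The wild-type libraries spanned 0.264 to 7.70 CPM, with C6.1 at the level of P2-CTCF-KO. The log2 fold change of *Pecam1* was -4.29 (SE 1.23), past DESeq2's threshold at an adjusted p of 0.0494 and not past edgeR's at 0.251. The P2-CTCF-KO libraries held 2, 4 and 2 counts of *Pecam1*, near the limit of 3 counts, so the size of this fold change is uncertain.

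*Kit*, the stem cell factor receptor, was measured at 7.84, 2.97 and 10.2 CPM in P1-CTCF-KO and at 0.760, 0.476 and 1.08 CPM in P2-CTCF-KO, with a log2 fold change of -3.14 (SE 0.79). *Tek* (TIE2), the angiopoietin receptor, had 3.86, 0.882 and 7.60 CPM against 0.152, 0.0680 and 0 CPM. *Cdh5* (VE-cadherin), which joins endothelial cells, had 3.07, 0.588 and 11.8 CPM against 0.0507, 0.0680 and 0.215 CPM. In each of these genes clone E9.1 was the highest and clone E7.2 the lowest of P1-CTCF-KO, and the P1-CTCF-KO clones differed from each other several-fold. In P2-CTCF-KO, *Tek* (3, 1 and 0 counts) and *Cdh5* (1, 1 and 4 counts) were near the limit of 3 counts, so the size of their difference is uncertain. *Sox18* had no read in P2-CTCF-KO and none in clone E7.2 or C6.1, so its libraries overlap although its mean was at least 20.6-fold lower over the group.

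**Figure D3:**
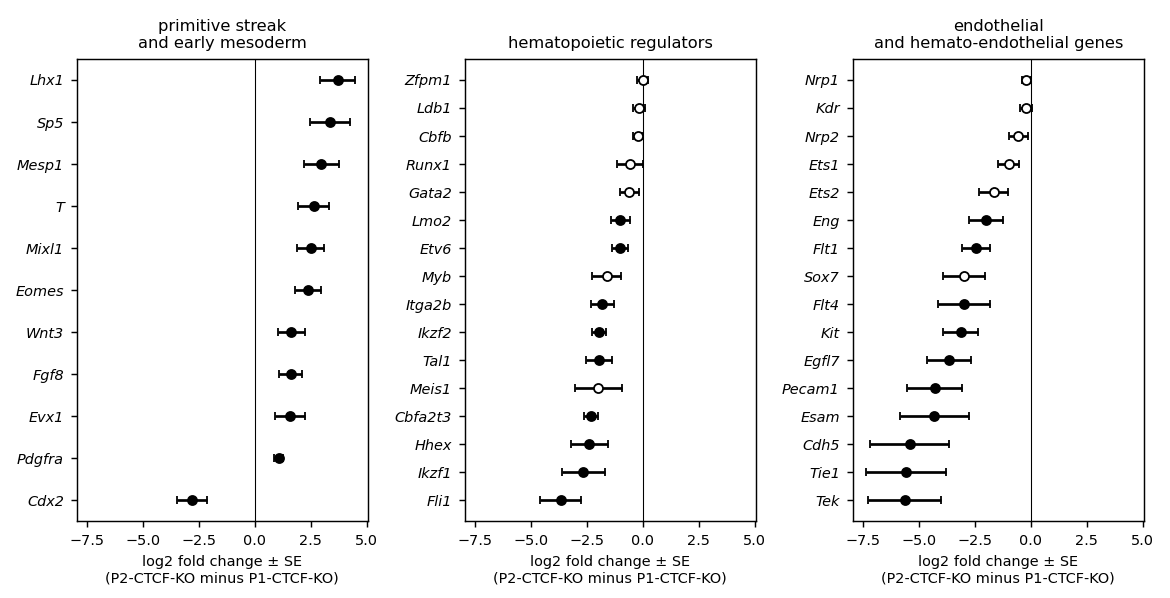
Log2 fold change of P2-CTCF-KO minus P1-CTCF-KO mesoderm (horizontal axis, points with bars of ± SE) for the tested genes of 3 lists; filled points are genes whose 3 against 3 libraries do not overlap, and *Erg* and *Sox18*, with no read in P2-CTCF-KO, are left out. Streak genes lie to the right of 0 except *Cdx2*, while blood and endothelial genes lie to the left or at 0, with *Kdr*, *Nrp1* and *Zfpm1* at the top of their panels.

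The study's own list of predicted RUNX1 targets was chosen from genes lower in these P2-CTCF-KO libraries than in wild type, so its direction is not independent evidence. All 35 tested of 36 genes lay below P1-CTCF-KO in every library, with a median log2 fold change of -1.40, and DESeq2 called 8, against 9.73% and 0.843% of all genes. Measured against the wild-type libraries, the P1-CTCF-KO side was the nearer one for most genes. Over the 1609 genes in which the knock-outs did not overlap, the wild-type mean was nearer to P1-CTCF-KO in 1356 (84.3%) and nearer to P2-CTCF-KO in 253 (15.7%). By library the share nearer to P1-CTCF-KO was 85.8% for B9.3, 76.5% for C8.1 and 51.6% for C6.1, so clone C6.1 was about equally close to both.

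Genes of FGF signalling, which drives cells out of the streak, were mostly higher in value in P2-CTCF-KO. In this list 12 of 14 tested genes had positive fold changes, as did 4455 of all 8778 genes, and 6 of them were without overlap, against 8.6% of all genes. The median was 0.56, and 0.30 without P2-CTCF-KO clone D10.1. *Spry4*, a feedback inhibitor of FGF signalling, was at 1.37, 1.91 and 1.48 CPM in P1-CTCF-KO and 4.05, 4.96 and 2.74 CPM in P2-CTCF-KO (log2 fold change 1.28, SE 0.37), and *Fgf8*, *Dusp4*, *Etv5*, *Spred1* and *Spred2* were also without overlap. None of the FGF genes was called by either tool on the 9 libraries. In the Wnt list 5 of 21 tested genes, *Dkk1*, *Sp5*, *Fzd7*, *Tcf7* and *Wnt3*, were higher without overlap, against 8.6% of all genes, and none was lower without overlap. *Dkk1*, a secreted Wnt antagonist that Wnt signalling itself induces, was at 0.291, 0.382 and 0.621 CPM against 1.22, 2.17 and 1.51 CPM and was called by DESeq2 (log2 fold change 1.92, SE 0.43, DESeq2 adjusted p = 0.0297). The median of the Wnt list was 0.16, near that of all genes. *Sp5*, *Wnt3* and, in the FGF list, *Fgf8* are also members of the streak list, so they are not separate observations.

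The BMP, Nodal and TGF-beta list had 24 tested genes and a median of -0.16. *Smad1*, which transmits BMP signals, was higher, at 4.32, 8.38 and 3.39 CPM against 12.2, 11.7 and 11.3 CPM (log2 fold change 1.11, SE 0.34). *Smad3*, which transmits Nodal and TGF-beta signals, was lower at a log2 fold change of -0.87 (SE 0.26), as was the ligand *Tgfb2* at -1.07 (SE 0.29). Each was without overlap between the knock-outs and none was called by DESeq2 on the 9 libraries. The study reports *Smad3* as lower in the same P2-CTCF-KO libraries than in wild type, so its direction is not independent evidence. In the whole list 2 genes, *Smad1* and *Bmper*, were higher without overlap and 3, *Tgfb2*, *Smad3* and *Tgfbr1*, were lower. These numbers are not far from the 8.6% and 9.73% of all genes. Of 12 tested Notch genes 2, *Dll3* and *Hes1*, were higher without overlap, not far from the 8.6% of all genes.

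Of 11 listed genes of the epithelial to mesenchymal transition 9 were tested. Of these, 2, *Snai1* and *Fn1*, were higher without overlap and 1, *Zeb1*, was lower, against 8.6% and 9.73% of all genes. The number of lower genes is near that share. The other 6 overlapped, among them *Cdh1* and *Cdh2*, which had higher values at an unadjusted p under 0.05 in edgeR's test. *Snai1*, the repressor of E-cadherin at the streak, was at 1.04, 1.35 and 1.10 CPM in P1-CTCF-KO and 5.22, 2.79 and 3.71 CPM in P2-CTCF-KO. Its wild-type values of 0.666, 1.41 and 0.894 CPM lay with P1-CTCF-KO. The log2 fold change was 1.74 (SE 0.30, adjusted p = 0.191 in edgeR's and 0.00161 in DESeq2's test). *Zeb1*, a later repressor of E-cadherin, was lower, at 11.2, 7.204 and 12.2 CPM against 3.65, 4.35 and 4.30 CPM (log2 fold change -1.31, SE 0.35, DESeq2 adjusted p = 0.0491). *Cdh1* (E-cadherin) was at 0.0830, 1.03 and 0.143 CPM in P1-CTCF-KO and 6.08, 0.816 and 0.215 CPM in P2-CTCF-KO. It overlapped between the knock-outs, since clone E7.2 lay above clones D2.1 and E9.1 of P2-CTCF-KO.

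Matrix genes were lower in P2-CTCF-KO in 15 of 24 tested genes without overlap, and higher in 2, *Fn1* and *Lama5*, against 9.73% and 8.6% of all genes. DESeq2 called 6 of the 15 (0.843% of all genes were called as lower), the fibrillins *Fbn1* and *Fbn2*, the collagens *Col1a1* and *Col18a1*, *Lama4* and *Vcan*. *Col1a1* was at 19.1, 6.79 and 26.1 CPM in P1-CTCF-KO and 0.456, 1.43 and 4.09 CPM in P2-CTCF-KO (log2 fold change -3.11, SE 0.73). *Fbn2* had the more even values of 25.9, 13.3 and 20.1 CPM against 5.83, 7.54 and 8.82 CPM (log2 fold change -1.42, SE 0.30). *Fn1* (fibronectin) went the other way, at 159.9, 213.4 and 160.5 CPM against 365.2, 256.9 and 432.8 CPM (log2 fold change 0.98, SE 0.33, not called by either tool).

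Imprinted genes were lower in 7 of 20 tested without overlap and higher in 1, against 9.73% and 8.6% of all genes. DESeq2 called 4 of the 20 as lower (0.843% of all genes), *Airn*, *Igf2*, *Igf2r* and *Grb10*. *Airn*, a long non-coding RNA that silences *Igf2r* on the paternal chromosome, was at 30.1, 16.4 and 25.3 CPM in P1-CTCF-KO and 2.43, 4.21 and 6.18 CPM in P2-CTCF-KO. In wild type it was at 32.0, 10.4 and 35.8 CPM, above every P2-CTCF-KO library. Its log2 fold change was -2.48 (SE 0.47), with an adjusted p of 0.191 in edgeR's and 0.000228 in DESeq2's test. *Igf2r* was lower as well, at 39.6, 18.6 and 57.8 CPM against 12.0, 10.6 and 14.3 CPM (log2 fold change -1.65, SE 0.47). The listed intervals of *Airn* and *Igf2r* overlap on opposite strands of chromosome 17, and whether the counting used strand is not given in the sources used here, so reads of both genes may be mixed. *Igf2*, a growth factor of mesoderm, was at 110.8, 35.8 and 189.8 CPM against 6.99, 8.70 and 24.1 CPM (log2 fold change -3.08, SE 0.76).

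Hox genes had few reads, and 7 of 31 listed genes and cofactors were tested. *Hoxd3* was at 1.78, 0.853 and 2.20 CPM in P1-CTCF-KO, whereas no read was counted in clones D10.1 and D2.1 and 0.108 CPM, below 3 counts, in E9.1 of P2-CTCF-KO. *Hoxd3* was called by DESeq2 (adjusted p = 0.00446), and *Hoxd4* and *Hoxb3* were lower without overlap. Together these were 3 of the 7 tested, where 9.73% of all genes were lower without overlap. The other 4 overlapped. Of the 7 tested, 3 had positive fold changes, among them the cofactor *Pbx3*, with an unadjusted p under 0.05 in edgeR's test. In the cardiac and lateral plate list the median of 11 tested genes was -0.25, and it moved to -1.07 without P2-CTCF-KO clone E9.1 and to -0.03 without D10.1. None of them was called by either tool on the 9 libraries. There *Gata4* was higher without overlap (log2 fold change 0.81, SE 0.41), *Mef2c*, *Isl1* and *Gata5* were lower without overlap, and *Gata6*, *Hand1* and *Hand2* overlapped. *Gata5* had no read in P2-CTCF-KO and was at least 7.05-fold lower over the group.

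**Figure D4:**
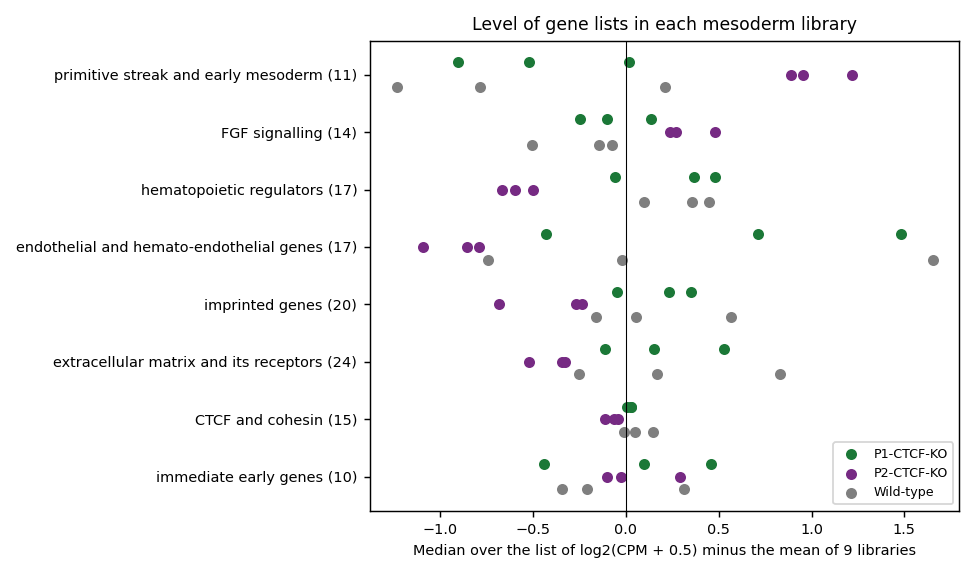
Level of 8 gene lists (number of tested genes in brackets) in each mesoderm library, as the median over the list of log2(CPM + 0.5) minus each gene's mean over the 9 libraries; each point is 1 library. P2-CTCF-KO libraries lie between 0.89 and 1.22 for streak genes and between -1.09 and -0.79 for endothelial genes, CTCF and cohesin genes lie within 0.15 of 0, and immediate early genes overlap.

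Some groups were described as a check. The 15 tested genes of CTCF and cohesin had a median log2 fold change of -0.15 and none had an unadjusted p under 0.05. Of these 15, *Rad21* and *Pds5b*, a cohesin subunit and a cohesin regulator, were lower without overlap, where 9.73% of all genes were. *Ctcf* was at 5.81, 5.03 and 6.40 CPM in P1-CTCF-KO and 5.42, 6.32 and 5.92 CPM in P2-CTCF-KO, a log2 fold change of 0.04 (SE 0.17) whose sign depended on single clones. The 9 tested neighbours of *Runx1* on chromosome 16 had a median of 0.30, or 0.14 without P2-CTCF-KO clone D10.1, above the 0.0061 of all genes. In 3 of the 9, *Atp5o*, *Slc5a3* and *Mrps6*, values were higher without overlap, where 8.6% of all genes were, and none had an unadjusted p under 0.05. The listed intervals of *Slc5a3* and *Mrps6* overlap on the same strand, so that they are not separate measurements. None of the 10 tested immediate early genes, which rise within minutes of handling, was separate or at an unadjusted p under 0.05. By chromosome the median log2 fold change ran from -0.135 on chromosome X to 0.0908 on chromosome 7.

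Outside the lists, the following genes are named after their values were seen, from among those with the smallest p-values. *Prkar2b*, a regulatory subunit of protein kinase A, was at 3.20, 2.82 and 3.39 CPM in P1-CTCF-KO and 0.557, 0.544 and 0.968 CPM in P2-CTCF-KO (log2 fold change -2.16, SE 0.30, adjusted p = 0.0934 in edgeR's and 0.000226 in DESeq2's test). *Cachd1*, a calcium channel related membrane protein, was at 7.97, 11.2 and 6.83 CPM against 37.5, 22.5 and 18.3 CPM (log2 fold change 1.58, SE 0.28). The semaphorin receptor *Plxna4* was higher without overlap, at a log2 fold change of 1.83 (SE 0.36). *Vegfa*, the ligand of the Flk1 receptor, was lower, at 2.70, 1.68 and 2.67 CPM against 0.608, 0.612 and 0.914 CPM (log2 fold change -1.70, SE 0.34), and so was *Epas1* (HIF-2 alpha), a hypoxia-responsive transcription factor, at -1.90 (SE 0.41).

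To ask whether the contrast differed at the later stage, the difference of P2-CTCF-KO minus P1-CTCF-KO between HPCs and mesoderm was tested in a fit of 21 libraries. Clones recurred in both stages and some HPC libraries shared a clone, which this fit did not model. Of 9170 genes edgeR called none (0%), with 627 at an unadjusted p under 0.05 and 5 called by DESeq2. *Runx1* in HPCs was at 138.4, 65.4 and 114.5 CPM in P1-CTCF-KO (E7.1, E7.2 and E9.1) and at 122.4 and 69.6 CPM in both libraries of D10.1, 45.3 and 38.5 CPM in both of D2.1 and 51.1 CPM in E9.1 of P2-CTCF-KO. The P2-CTCF-KO HPC library of clone D2.1 stood apart, with *Cdh2* (N-cadherin) at 22.7, *Col4a1* at 34.0 and *Cdh5* at 14.9 CPM, where the 4 other P2-CTCF-KO libraries held at most 3.74, 3.74 and 3.11 CPM. Without this library edgeR again called 0 genes for the difference between stages. The log2 fold change of *Runx1* in HPCs was -0.70, and its difference from mesoderm had an adjusted p of 0.985. The smallest adjusted p of the interaction, 0.0897, was that of *Cbfa2t3* and *Airn*. *Cbfa2t3* had a log2 fold change of -0.35 in HPCs, at 17.5 to 25.3 CPM in P1-CTCF-KO and 13.0 to 20.7 CPM in P2-CTCF-KO libraries, which overlap. *Airn* was at 10.5 to 22.04 CPM in P1-CTCF-KO and 17.2 to 36.2 CPM in P2-CTCF-KO HPCs, a log2 fold change of 0.95 in the direction opposite to mesoderm. For *Pecam1* the log2 fold change in HPCs was 0.03, with a difference between stages of 4.31 (adjusted p = 0.47), which does not show that the stages differed.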

How the data were processed

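Poly(A)-minus RNA of sorted cells was sequenced. Per the study's methods, the authors aligned to mm9 (STAR), discarded PCR duplicates (picard) and assigned reads to exons and introns (featureCounts); whether strand was used, and the annotation, are not given in the sources used here. The deposited table holds raw counts per gene for 23 libraries, not normalized; 0 columns were left out. Peak coordinates of CTCF ChIP-seq and ATAC-seq were used as deposited, and sequence came from a reference genome of the same build (NCBIM37).

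The 9 mesoderm libraries were fitted with edgeR 4.0.16 in R 4.3.3 (quasi-likelihood test after TMM; genes kept by filterByExpr at a minimum count of 10; Benjamini-Hochberg adjustment over all genes tested). Genes were called at an adjusted p under 0.05 together with a log2 fold change beyond 1 in either direction. The filter keeps a gene with enough reads in as many libraries as a group holds. A gene with few reads can therefore pass through a single genotype, which affects the directions and medians of the lists. CPM values use TMM-scaled library sizes of each fit, so HPC values are on the scale of the fit of 21 libraries. DESeq2 1.42.0, another normalization (RLE), no filter, other sets of libraries, summed sub-clones and leaving out each library were the alternatives. No pair of libraries of 1 group agreed within sampling noise (chi-square per degree of freedom of at least 3.94). For *Runx1* an exact permutation test was added. The scripts were tested on simulated data. From the principal components, the medians by chromosome and the chi-square values, 187 entries for ribosomal RNA or genes at several loci were left out. They stayed in the fit.

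Named genes were *Runx1*, the called genes with the smallest adjusted p, called members of the lists, and *T*, *Eomes*, *Pecam1*, *Etv6*, *Ikzf1*, *Ikzf2*, *Erg*, *Flt1*, *Kdr* and *Tal1*. As no gene was called, other genes were named as members of the lists or after their values were seen. The comparison and the gene lists were chosen with earlier results of these data known. The floor of a count of 0 was 3 counts, for counting error only. Fold changes of low genes depend on the prior count of the fit.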

Additional observations from a re-analysis of the deposited data

Results flagged for a closer look

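Among the 5 P2-CTCF-KO HPC libraries, used only for the difference between stages, 1 library of clone D2.1 lay far above the others in *Cdh5*, *Cdh2* and *Col4a1*, genes that were singled out after their values had been seen. Its gap to the next library was 0.822 of the range for *Cdh5*, 0.851 for *Cdh2* and 0.921 for *Col4a1*, beyond Dixon's 95% critical value of 0.71 for 5 samples. Chance passes that value in about 1 in 20 groups of independent samples, for genes picked beforehand. The 5 libraries came from 3 clones and the genes were picked afterwards, so this rate does not apply here. The second library of clone D2.1 held 1.43, 0.446 and 3.03 CPM of these genes. The same measure for *Runx1* was 0.629, within the critical value.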

How the results depend on the processing

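For P2-CTCF-KO against P1-CTCF-KO mesoderm edgeR called 0 genes, as it did with RLE in place of TMM, with the adjusted p alone, without ribosomal RNA and genes at several loci, and with clones E7.1 and E7.2 summed. It called 267 without the filter on low counts, 32 on only the 6 libraries compared and 4 on all 21 differentiated libraries. DESeq2 called 98, and 226 on only the 6 libraries, a setting added after seeing the data. Leaving out 1 library at a time gave 0 to 37 genes, 37 without wild-type B9.3 and 2 without P1-CTCF-KO E7.2. The test without the filter covered 17333 genes, and the cause of these differences was not tested. *Runx1* was not called under any setting, with log2 fold changes of -0.90 to -0.16 when 1 library was left out.

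The difference between stages, with 0 genes called, had 5 with DESeq2, 1 without the filter and 0 to 6 when 1 library was left out, 6 without P2-CTCF-KO D10.1 of the HPCs and 3 without P1-CTCF-KO E7.2 of the mesoderm. With the clone as a replicate block it had 0. No paired analysis was possible for the mesoderm contrast because the only shared name, E9.1, stands for different clones.

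Of 78 genes, 76 kept their direction under the alternatives. *Ctcf* turned to -0.0369 without P1-CTCF-KO E7.2 and to -0.0174 without P2-CTCF-KO D2.1, and *Hand1* to 0.0857 without P1-CTCF-KO E7.1 and to 0.0391 without P2-CTCF-KO D10.1. With 1 library left out, the median log2 fold change lay between 1.90 and 2.76 for streak genes and between -3.84 and -2.23 for endothelial genes. Those of the Wnt, epithelial to mesenchymal, immediate early, pluripotency, endoderm, ectoderm and Y-linked lists took both signs. Depth limits the genes with few reads: 1897917 to 2288976 counts remained per library outside ribosomal RNA and genes at several loci.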

Other observations

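Markers of early stages other than the streak were mostly too low to test. Of 14 pluripotency genes 3 were tested, and 2, *Tdgf1* and *Lin28a*, were higher in P2-CTCF-KO mesoderm without overlap, where 8.6% of all genes were. *Tdgf1* (Cripto), a Nodal co-receptor also made at the streak, was at 0.124, 0.9997 and 0.0955 CPM in P1-CTCF-KO against 3.40, 2.85 and 1.88 CPM in P2-CTCF-KO. Its log2 fold change was 2.58 (SE 0.70), and DESeq2 called it with an adjusted p of 0.0468. *Pou5f1*, *Nanog* and *Sox2* did not pass the filter. *Pou5f1* was at 0, 0.147 and 0 CPM in P1-CTCF-KO and 1.12, 0.612 and 0.376 CPM in P2-CTCF-KO, without overlap, while *Nanog* and *Sox2* overlapped. No globin or other primitive red cell gene of a list of 9 passed it. Of 16 genes of paraxial and intermediate mesoderm 2 were tested, of which *Dll3* was at 0.208, 0.529 and 0 CPM against 2.48, 1.09 and 1.29 CPM. None of the 3 tested ectoderm genes and 2 tested endoderm genes was without overlap. The 3 tested Y-linked genes overlapped as well, with a median log2 fold change of 0.26. Their median level (log2 CPM relative to the mean of 9 libraries) differed between clones within a genotype. It was -0.11, -0.95 and 0.54 in P1-CTCF-KO, 0.08, 0.13 and -0.06 in P2-CTCF-KO and 1.10, -0.67 and 0.28 in wild type. The lowest were clones E7.2 and C6.1, and the cause was not tested.

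The P1-CTCF-KO clones E7.1 and E7.2, taken by their names as sub-clones of the same targeting event, differed in the lists described above. The median level of the endothelial list (log2 CPM relative to the mean of 9 libraries) was 0.71 in E7.1, -0.43 in E7.2 and 1.48 in E9.1. For the streak list it was -0.52, 0.02 and -0.90. No P2-CTCF-KO library fell in these ranges, lying between -1.09 and -0.79 for endothelial and between 0.89 and 1.22 for streak genes. The part of this spread in the result was not tested.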
